A study of Mus musculus with 40 samples.

Results

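The genes described here encode the enzymes of cholesterol synthesis, the enzymes that make, desaturate and elongate fatty acids, and the proteins that switch both pathways on and off. They were taken by symbol from the count tables, and all 32 listed genes were found among the 32531 genes counted. The samples were ribosome-bound RNA of astrocytes from adult mice of the line Tg(Aldh1l1-EGFP/Rpl10a)JD130Htz, purified with antibodies against EGFP (translating ribosome affinity purification, TRAP) and sequenced. Every group carried this transgene, in which the promoter of Aldh1l1, a gene active in astrocytes, drives an EGFP-tagged ribosomal protein. Stressed (susceptible) mice were exposed on 10 days, for 10 minutes each day, to attack by a CD1 mouse and afterwards had a social interaction index below 1. Resilient mice went through the same social defeat and had an index above 1, and control mice were group housed without defeat. Tissue was taken 2 days after the last defeat. There were 5 stressed, 4 resilient and 3 control libraries of the prefrontal cortex (PFC), 5, 3 and 3 of the hippocampus (HIP), 4, 3 and 3 of the nucleus accumbens (NAC), and 3, 2 and 2 of the caudate putamen (CPU). Each library was a pool of 2 mice, or of 4 to 6 mice for the NAC. Whether the pools of different regions came from the same mice is not given in the labels, and p-values cover no more than the spread between these pools.

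Cholesterol is built from acetyl-CoA through mevalonate, farnesyl diphosphate, squalene and lanosterol, and fatty acids are built from the same acetyl-CoA. Both pathways are switched on by the SREBP transcription factors (genes Srebf1 and Srebf2), which Scap carries from the endoplasmic reticulum to the Golgi for cleavage when sterols are low, while Insig1 and Insig2 hold Scap back when sterols are plentiful. Brain cholesterol is made within the brain, and in adults astrocytes make much of it and pass it to neurons on apolipoprotein E.

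SREBP acts on promoters through sterol regulatory elements and E-boxes, usually beside a site for the factor NF-Y, so the promoters of 4 members are shown that differ in these motifs and in how the genes moved. These 4 are examples chosen in part by how the genes moved, so they cannot show a link between motif and change. The sequences are from RefSeq (GRCm38.p6), from 250 bases before to 50 bases after the gene start, read 5′ to 3′ on the strand of the gene. Capitals mark the letters of the sterol regulatory element TCACNCCAC, the NF-Y box CCAAT and the E-box CACGTG, searched on both strands, and no 2 of the marked motifs overlap.
Hmgcs1, chr13:119690101-119690400, plus strand: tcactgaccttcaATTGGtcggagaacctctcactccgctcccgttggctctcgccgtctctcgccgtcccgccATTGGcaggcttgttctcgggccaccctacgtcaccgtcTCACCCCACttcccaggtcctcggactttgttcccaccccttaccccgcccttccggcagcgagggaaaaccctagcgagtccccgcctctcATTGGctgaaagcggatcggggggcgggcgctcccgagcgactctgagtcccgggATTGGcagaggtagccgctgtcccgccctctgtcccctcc
Cyp51, chr5:4104648-4104947, minus strand: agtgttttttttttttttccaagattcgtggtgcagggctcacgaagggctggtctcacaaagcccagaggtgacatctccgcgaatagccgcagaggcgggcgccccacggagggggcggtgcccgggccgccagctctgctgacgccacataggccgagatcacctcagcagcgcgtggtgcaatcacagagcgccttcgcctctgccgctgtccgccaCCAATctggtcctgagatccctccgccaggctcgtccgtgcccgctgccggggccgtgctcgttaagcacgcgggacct
Sc5d, chr9:42264251-42264550, minus strand: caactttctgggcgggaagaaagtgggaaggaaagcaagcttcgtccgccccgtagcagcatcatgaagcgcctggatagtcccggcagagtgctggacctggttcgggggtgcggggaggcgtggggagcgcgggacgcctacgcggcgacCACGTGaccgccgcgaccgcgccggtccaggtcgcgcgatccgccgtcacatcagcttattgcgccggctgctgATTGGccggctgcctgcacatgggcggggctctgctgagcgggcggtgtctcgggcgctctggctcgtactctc
Elovl5, chr9:77917115-77917414, plus strand: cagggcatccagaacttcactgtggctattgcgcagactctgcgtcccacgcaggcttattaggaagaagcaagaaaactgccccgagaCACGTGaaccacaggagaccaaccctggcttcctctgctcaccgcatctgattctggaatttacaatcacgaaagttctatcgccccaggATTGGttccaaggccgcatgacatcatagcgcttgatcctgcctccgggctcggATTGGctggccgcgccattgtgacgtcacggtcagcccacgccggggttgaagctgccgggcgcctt

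The promoter of Hmgcs1, which makes HMG-CoA, held the sterol regulatory element 137 bases before the gene start, with NF-Y boxes 237, 176 and 45 bases before it and 10 bases after it. That of Cyp51, the lanosterol demethylase, held a single NF-Y box 29 bases before the start. In the promoter of Sc5d, the sterol C5 desaturase, an E-box lay 98 bases and an NF-Y box 24 bases before the start, and in that of Elovl5, which elongates polyunsaturated fatty acids, an E-box lay 161 bases and NF-Y boxes 71 and 17 bases before the start. RefSeq promoters were matched for 25 of the 32 members, 33 promoters in all. The NF-Y box was found in 21 of these 33 (63.6%, against 37.4% of 32851 promoters of all genes), the E-box in 7 (21.2%, against 7.15%) and the sterol regulatory element in 1 (3.03%, against 1.24%). Besides Sc5d and Elovl5, the members with an E-box were Dhcr7, Hsd17b7, Insig1 and Scap, of which only Scap was called in stressed against control PFC (below). These matches describe letters in the window, and neither they nor a link to the changes was tested. Only exact matches to the patterns were counted, so a site that departs from its pattern is neither marked nor counted.

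Each library held 21.3 to 33.0 M counts in genes, and the 32 members took 0.402% to 0.676% of them. All 32 passed the filter on low counts in every comparison. The markers of astrocytes Aldh1l1, Aqp4 and Gja1 were detected in every group, and summed counts per M counts (CPM) of 10 astrocyte markers were 23614 to 35966 in stressed, 26034 to 36902 in resilient and 30945 to 31759 in control PFC libraries. Libraries of the same group stood apart by a trait of their file names. The region code is written with 3 letters for 16 libraries (long form: PFC stressed 4 and 5, resilient 1 to 3 and control 1 and 2; HIP stressed 1 to 3, resilient 3 and control 2 and 3; NAC stressed 4, resilient 1 and control 1) and with 1 letter for the other 24 (short form, all CPU libraries included). What the form stands for is not given in the sources used here. In the 9 groups that hold both forms, Scd2 was higher in the short-form libraries in 9 of 9, with a median difference of 0.85 on the log2 scale, and the medians were 0.96 for Elovl5, 0.73 for Cyp51, 0.12 for Acat2 and -0.07 for Hmgcs1. Results are therefore also given by form. Some values are uncertain because genes share sequence or exons: Acaca shares 99.2% of 6118 aligned bases with Gm5182, Acat2 97.7% with Acat3 and Scd2 95.5% of 623 aligned bases with Scd1, while 26.7% of the exonic bases of Fdps overlap Gm43738 and 18.3% of those of Fdft1 overlap Ctsb.

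Per kb of exon, Scd2, the main stearoyl-CoA desaturase of the brain, had the highest median level of the members over the 40 libraries, 177.70 CPM per kb. The mevalonate enzymes Mvd and Pmvk came next with 113 and 104 CPM per kb, then the polyunsaturate desaturase Fads1 with 93.6 and Hmgcs1 with 89.98 CPM per kb. The lowest were Acaca, acetyl-CoA carboxylase, with 0.773, and Stard4, a carrier of sterol between membranes, with 1.69 CPM per kb. Exonic length here joins all annotated exons of a gene, 17.07 kb for Acaca, and can exceed the length of a single transcript. Acaca also shares sequence with Gm5182, as given above, so its rank is uncertain. The ranges over libraries of neighbours in this order overlapped. The members that varied most between libraries were Elovl5, whose highest CPM was 6.84 times its lowest, Scd2 with 5.37 times and Tm7sf2, a sterol C14 reductase, with 5.14 times. Those that varied least were Insig2 with 1.71 times and Acat2, the thiolase that starts the mevalonate pathway, with 1.83 times.

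**Figure D1:**
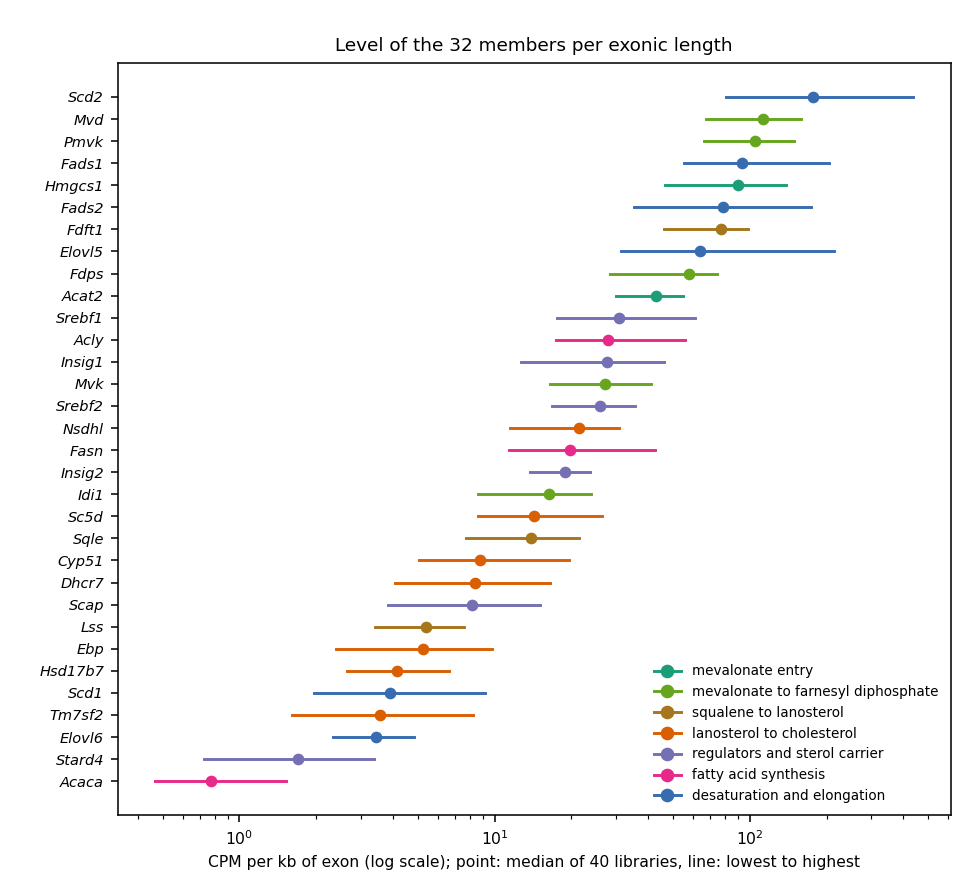
Level of each of the 32 members in CPM per kb of exon, on a log axis; points are medians of 40 libraries, lines run from the lowest to the highest library, and colours give the role in the pathway. Scd2 is at the top with 177.70 CPM per kb and Acaca at the bottom with 0.773.

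In the PFC, astrocyte libraries of stressed mice held more RNA of the sterol enzymes Sqle, Cyp51, Tm7sf2, Ebp and Sc5d, of the desaturases Scd1, Scd2, Fads1 and Fads2, and of Elovl5, Acaca, Scap and Srebf1 than those of control mice, while the enzymes from acetyl-CoA to farnesyl diphosphate did not pass the test. A gene is called here when its adjusted p is under 0.05 in edgeR's quasi-likelihood test over all genes of the region (Benjamini-Hochberg), with all 3 conditions in 1 fit. Of the 32 members 13 were called higher and 1 lower in stressed than in control PFC, where 16.4% of the 15491 genes tested were called higher and 11.7% lower (28.1% in either direction). The members' median log2 fold change was 0.30, against 0.04 over all genes tested. Because the members were chosen with earlier results of these data known, these shares and medians are descriptions only. By role, 5 of 6 desaturation and elongation genes, 4 of 7 genes from lanosterol to cholesterol, 2 of 6 regulators and carriers (Srebf1 and Scap), 1 of 3 genes of fatty acid synthesis (Acaca) and 1 of 3 from squalene to lanosterol (Sqle) were called higher. Stard4 was the member called lower, and none of the 7 genes from acetyl-CoA to farnesyl diphosphate was called. In these pooled tissue libraries, fewer cells of a type and less RNA per cell cannot be told apart. File-name form was not balanced either: 3 of 5 stressed, 1 of 4 resilient and 1 of 3 control PFC libraries have the short form. Within groups, the median log2 difference of short over long form was 0.96 for Tm7sf2 and Elovl5, 0.87 for Scd1 and 0.00 for Acaca. Form and condition are thus partly mixed in the PFC comparisons. The fit rests on 3 control libraries: without control 1, 2 or 3 the members called were 3, 7 and 8 (9.7%, 13.8% and 23.0% of all genes), and without stressed 2 they were 9 (27.1% of all genes).

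**Figure D2:**
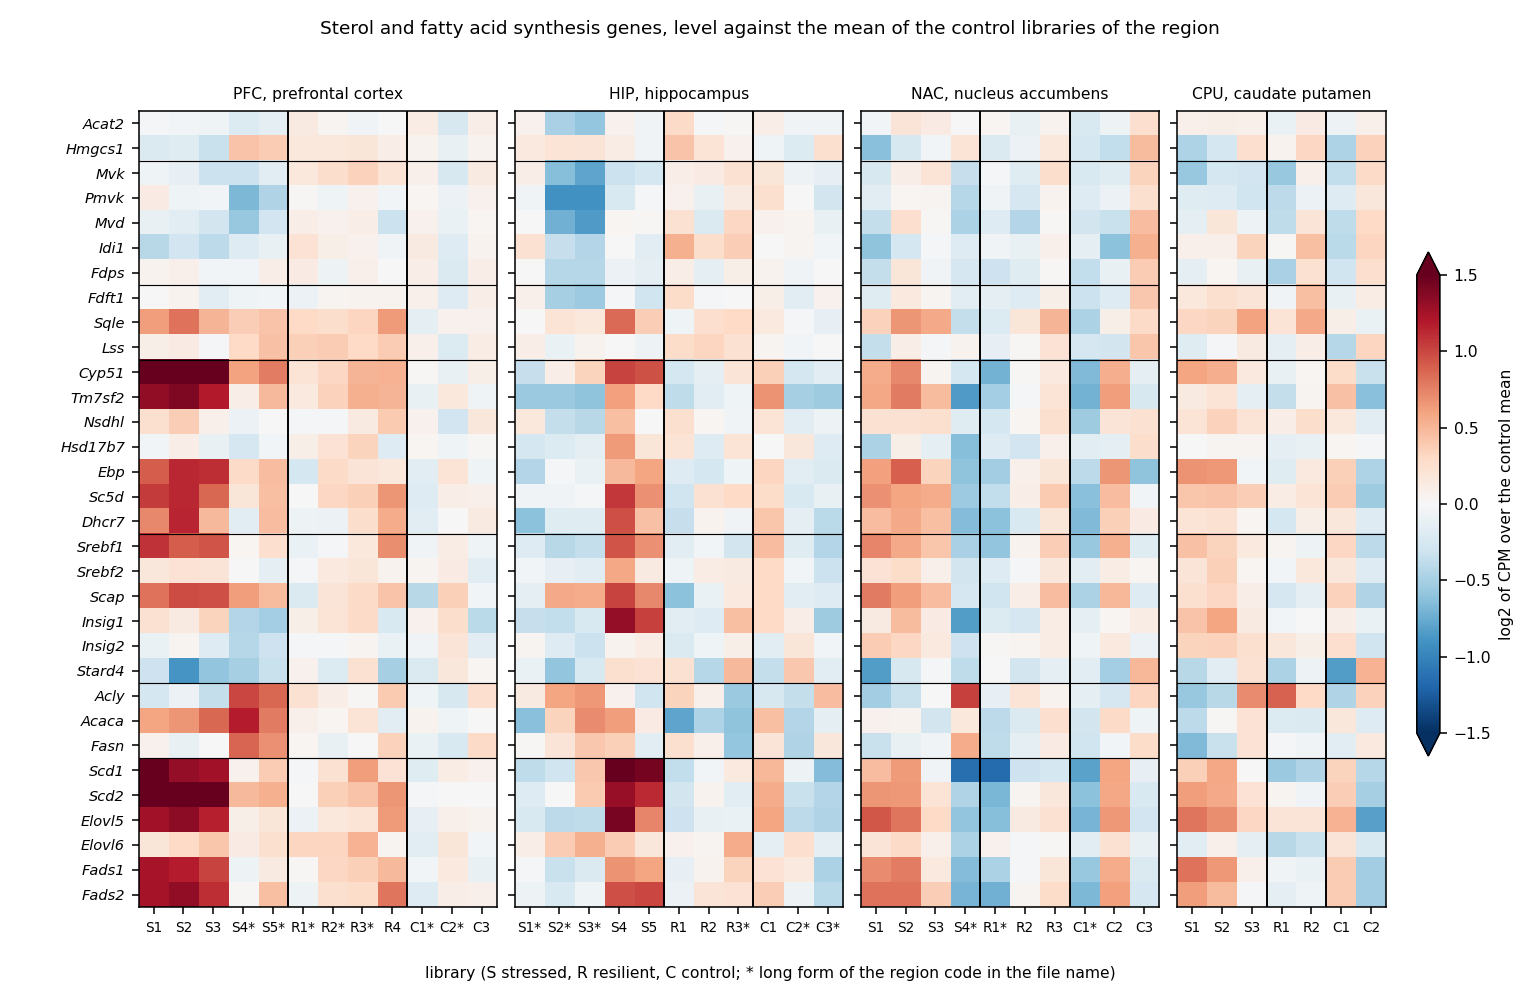
Level of the 32 members (rows, grouped by role from mevalonate entry at the top to desaturation and elongation at the bottom) in each of the 40 libraries (columns; S stressed, R resilient, C control; an asterisk marks the long form of the file name), as log2 of CPM over the control mean of the region; colours saturate at 1.5. Stressed PFC libraries 1 to 3 are red for Cyp51, Tm7sf2, Scd1, Scd2, Elovl5, Fads1 and Fads2, and so are stressed HIP libraries 4 and 5.

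Scd2 (chr19:44293674-44306864, mm10) had 1384, 1307, 1293, 629.6 and 652 CPM in the 5 stressed PFC libraries, 447, 576, 601 and 711 CPM in the 4 resilient ones and 443, 451 and 452 CPM in the 3 control ones. Every stressed library lay above every control library, stressed 1 to 3 stood far above stressed 4 and 5, and resilient 4 lay above stressed 4 and 5. The log2 fold change of Scd2 in stressed over control was 1.23 (SE 0.27, adjusted p = 0.00712). Scd1, the other stearoyl-CoA desaturase, had 45.0, 39.1, 37.3, 16.4 and 20.3 CPM in stressed, 15.4, 18.2, 24.0 and 18.1 CPM in resilient and 13.7, 16.9 and 16.3 CPM in control PFC (log2 fold change 1.02, SE 0.30, adjusted p = 0.0248). Here stressed 4 lay within the control range. Elovl5 had 344, 365, 324, 153 and 164 CPM in stressed, 136, 161, 166 and 223 CPM in resilient and 132, 152 and 149 CPM in control PFC (log2 fold change 0.91, SE 0.28, adjusted p = 0.0328). All stressed libraries of Elovl5 were above the controls, those of the long form by a little. Fads1 and Fads2, the desaturases that make polyunsaturated fatty acids, were called too. Fads1 had 675, 648, 577, 271 and 314 CPM in stressed, 289, 353, 365 and 401 CPM in resilient and 277, 315 and 265 CPM in control PFC (log2 fold change 0.80, SE 0.27, adjusted p = 0.0454), so that stressed 4 and 5 lay within the control range. Fads2 had 314, 332, 284, 133 and 181 CPM in stressed, 126, 156, 159.9 and 230.4 CPM in resilient and 115, 142 and 139.8 CPM in control PFC (log2 fold change 0.91, SE 0.28, adjusted p = 0.0303), with stressed 4 within the control range. Elovl6, which elongates saturated fatty acids, had 23.6 to 29.0 CPM in stressed and 19.5 to 24.6 CPM in control PFC and was not called.

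Cyp51 showed the largest fold change of the members. It had 80.3, 86.8, 75.1, 39.3 and 44.2 CPM in stressed, 29.9, 32.2, 36.8 and 37.1 CPM in resilient and 26.2, 24.1 and 27.6 CPM in control PFC. Every stressed library was above every resilient library, and every resilient library above every control library. Its log2 fold change in stressed over control was 1.33 (SE 0.24, adjusted p = 0.00289). Tm7sf2, which acts on the product of Cyp51, had 34.5, 36.3, 31.4, 14.7 and 19.3 CPM in stressed and 12.8, 15.4 and 13.2 CPM in control PFC (log2 fold change 0.98, SE 0.26, adjusted p = 0.0165). Its stressed library 4 lay within the control range. Ebp, the sterol isomerase, had 16.0, 18.6, 18.4, 10.4 and 11.8 CPM in stressed, 7.11, 10.4, 9.74 and 9.48 CPM in resilient and 7.58, 9.82 and 8.16 CPM in control PFC (log2 fold change 0.82, SE 0.21, adjusted p = 0.0145), and Sc5d had 117, 123, 102, 64.0 and 77.2 CPM in stressed and 49.3, 60.5 and 59.7 CPM in control PFC (log2 fold change 0.77, SE 0.21, adjusted p = 0.0182). For both genes the stressed and control libraries did not overlap. Dhcr7, which makes cholesterol from its immediate precursor, had 72.1, 96.3, 61.1, 38.6 and 59.9 CPM in stressed and 39.1, 43.8 and 47.8 CPM in control PFC, a log2 fold change of 0.59 that missed the threshold (adjusted p = 0.0843). Nsdhl and Hsd17b7, which act between Tm7sf2 and Ebp, had 62.8 to 86.2 and 22.5 to 28.7 CPM in stressed PFC, against 55.0 to 75.5 and 25.8 to 27.5 CPM in control PFC, and were not called.

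Among the regulators, Scap (chr9:110333288-110384950, mm10) had 69.9, 78.0, 77.8, 61.1 and 55.0 CPM in stressed, 34.2, 45.3, 48.3 and 53.4 CPM in resilient and 29.7, 50.6 and 38.7 CPM in control PFC. All stressed libraries were above all others, and the log2 fold change over control was 0.78 (SE 0.19, adjusted p = 0.0108). Srebf1, the SREBP gene tied most closely to fatty acid synthesis, had 227, 201, 206, 109 and 127 CPM in stressed, 99.7, 105, 119 and 173 CPM in resilient and 103, 116 and 102 CPM in control PFC (log2 fold change 0.70, SE 0.25, adjusted p = 0.0481). Stressed 4 lay within the control range, and this call was among those nearest to the threshold. Srebf2, the SREBP gene tied to sterol synthesis, had 155 to 199.7 CPM in stressed and 153 to 187 CPM in control PFC and was not called. The Scap anchors Insig1 and Insig2 were not called, with 54.8 to 98.5 and 53.2 to 73.7 CPM in stressed, against 58.9 to 94.2 and 63.8 to 81.7 CPM in control PFC. Stard4 fell to 12.9, 8.72, 10.6, 11.4 and 12.7 CPM in stressed PFC, against 13.8, 18.0 and 16.4 CPM in control PFC, with no overlap. Its call and that of Sqle, the squalene epoxidase, were past the threshold with smaller fold changes than the 12 members given in full.

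In fatty acid synthesis, Acaca (chr11:84129672-84401651, mm10), which makes malonyl-CoA, had 17.3, 18.2, 20.9, 25.9 and 19.7 CPM in stressed, 12.2, 11.7, 13.2 and 10.2 CPM in resilient and 12.0, 11.03 and 11.5 CPM in control PFC. Stressed libraries were all above the others, long and short form alike, with a log2 fold change over control of 0.83 (SE 0.15, adjusted p = 0.00242). Acly, which supplies cytosolic acetyl-CoA, had 122, 138, 115, 294 and 266 CPM in stressed, 172, 158, 148 and 193 CPM in resilient and 141, 125 and 175 CPM in control PFC. Fasn, the fatty acid synthase, had 266, 234, 253, 466.2 and 407 CPM in stressed, 258, 234, 254 and 322 CPM in resilient and 236, 216 and 308 CPM in control PFC. For both genes stressed 4 and 5 were the highest PFC libraries and none of stressed 1 to 3 was above the control range, and neither gene was called over the 5 stressed libraries.

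Sqle (chr15:59315077-59331192, mm10) had 104, 119, 96.2, 86.9 and 90.5 CPM in stressed, 83.3, 80.7, 84.7 and 105 CPM in resilient and 61.4, 70.6 and 70.4 CPM in control PFC. All stressed and all resilient libraries were above the controls. Lss, lanosterol synthase, had 59.6 to 81.7 CPM in stressed, 73.8 to 78.4 CPM in resilient and 52.2 to 65.1 CPM in control PFC. Fdft1, squalene synthase, and Fdps, farnesyl diphosphate synthase, had 346 to 404 and 279.8 to 308 CPM in stressed, against 341 to 417 and 248 to 309 CPM in control PFC. Hmgcs1 had 406, 416, 374, 636 and 614 CPM in stressed, 527, 525.6, 535 and 505 CPM in resilient and 490.4, 436 and 489 CPM in control PFC. Stressed 1 to 3 lay below and stressed 4 and 5 above all controls. Acat2 had 111 to 125 CPM in stressed and 108 to 138 CPM in control PFC. The kinases Mvk and Pmvk had 68.8 to 82.1 and 146 to 255 CPM in stressed, against 73.1 to 94.1 and 219 to 244 CPM in control PFC. The decarboxylase Mvd had 185 to 254 CPM in stressed and 256 to 288 CPM in control PFC, and the isomerase Idi1 51.2 to 63.4 CPM in stressed and 59.8 to 75.1 CPM in control PFC. None of these 7 upstream genes, nor Fdft1 or Lss, was called.

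**Figure D3:**
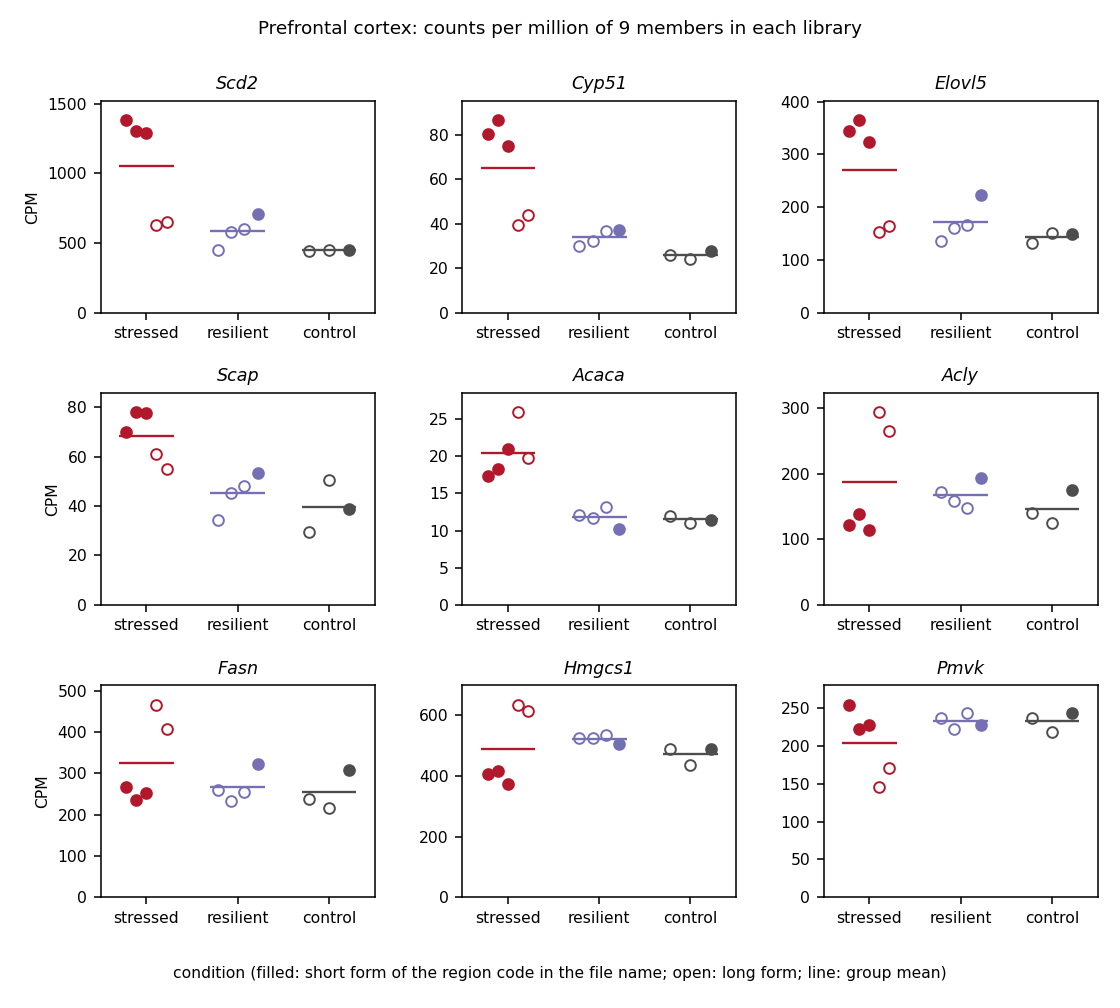
CPM of 9 members in each PFC library, with stressed on the left, resilient in the middle and control on the right; filled points are short-form and open points long-form libraries, and lines are group means. For Scd2 the filled stressed points lie at 1293 to 1384 CPM and the open ones at 629.6 and 652 CPM, and for Acly, Fasn and Hmgcs1 the open stressed points are the higher ones.

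The stressed PFC libraries thus fell into 2 sets by file-name form, and each set was compared with the same 3 controls. Against them, 14 members were called higher and 3 lower in stressed 1 to 3 (short form), where 37.8% of 15380 genes were called in either direction, and 9 higher and 3 lower in stressed 4 and 5 (long form), where 48.7% of 15618 genes were called. Cyp51, Scd2, Scap, Acaca and Sqle were called higher in both sets. For Cyp51 the log2 fold change was 1.61 (SE 0.11) in stressed 1 to 3 and 0.71 (SE 0.13) in stressed 4 and 5, for Scd2 1.54 (SE 0.12) and 0.53 (SE 0.14), and for Acaca 0.68 (SE 0.13) and 1.01 (SE 0.16). Hmgcs1 was called in opposite directions, with -0.27 (SE 0.08, adjusted p = 0.0103) in stressed 1 to 3 and 0.43 (SE 0.09, adjusted p = 0.0011) in stressed 4 and 5. Acly and Fasn had -0.26 (SE 0.12) and -0.04 (SE 0.13) in stressed 1 to 3, not called, and 0.95 (SE 0.13) and 0.81 (SE 0.15) in stressed 4 and 5, both called. Elovl5 had 1.23 (SE 0.14), called, in stressed 1 to 3 and 0.16 (SE 0.15), not called, in stressed 4 and 5, and Pmvk had -0.02 (SE 0.08), not called, and -0.54 (SE 0.10), called. The difference between the sets was not tested. Restricted to short-form libraries, 15 members were called higher and 6 lower in stressed than in control PFC, beside 24.9% of all genes called in either direction. There control 3 is the single control, and the spread comes from the stressed libraries alone. Restricted to long-form libraries, 9 were called higher and 4 lower, beside 54.0% of all genes.

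Other traits differed between these sets too. Across 10538 genes, the log2 ratio of a library to the control mean correlated with exonic length at r = 0.472 and 0.414 in stressed 4 and 5, 0.048 to 0.134 in stressed 1 to 3 and -0.156 to 0.190 in the controls. Genes are not independent replicates, and these r values describe the libraries. Summed CPM of 10 neuron markers were 2927 to 5520 in stressed, 2434 to 2801 in resilient and 2086 to 2817 in control PFC, and the highest were stressed 4 and 5 with 5520 and 5179. Summed astrocyte markers were 32797 to 35966 CPM in stressed 1 to 3 and 23614 and 27677 CPM in stressed 4 and 5. Summed CPM of 10 microglia markers were 61.7 to 83.2 in stressed 1 to 3, 39.0 and 34.7 in stressed 4 and 5, 27.0 to 32.4 in resilient and 20.2 to 28.8 in control PFC. In stressed against control PFC, 7 of 10 neuron, 8 of 10 microglia, 3 of 10 oligodendrocyte, 2 of 6 endothelial and 4 of 10 astrocyte markers tested were called higher and none lower. Of 5 markers of oligodendrocyte precursors 2 were called higher and 1 lower, of 5 choroid plexus markers 0 were called, and no list had its defining markers at 0. In stressed against resilient PFC, 7 neuron, 7 microglia, 4 oligodendrocyte, 4 endothelial, 2 precursor and 1 astrocyte markers were called higher and none lower. The part of these traits in the members' differences was not tested.

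**Figure D4:**
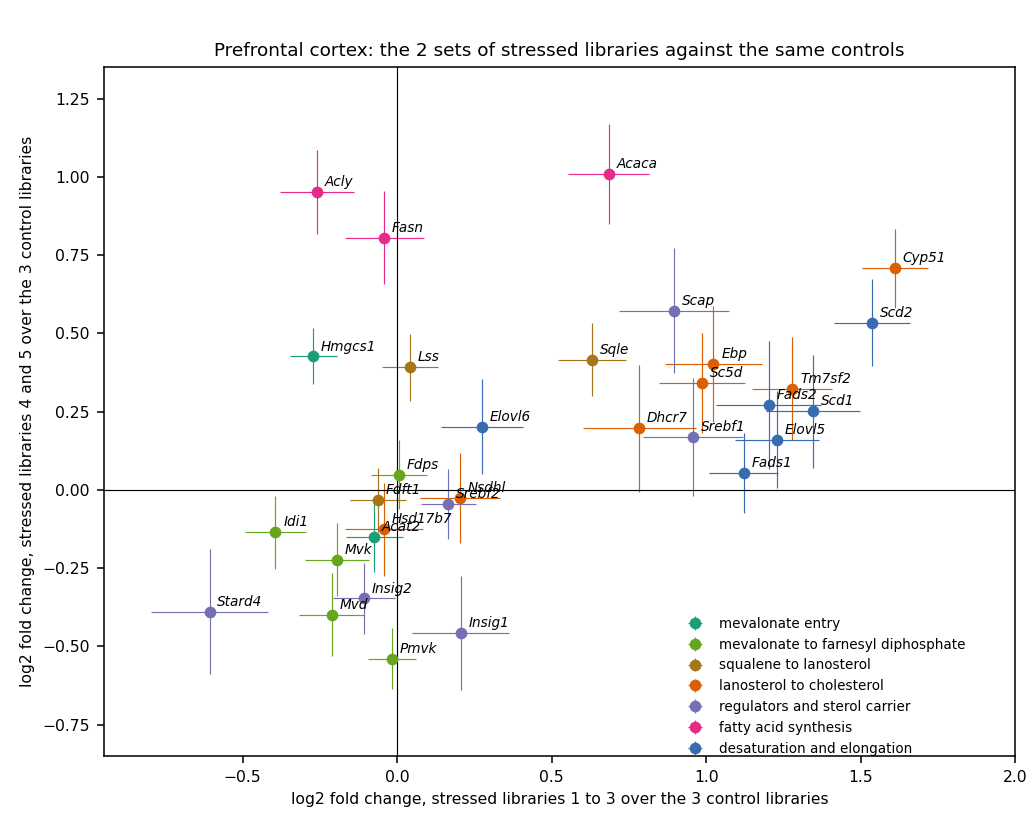
Log2 fold change of each of the 32 members over the same 3 PFC control libraries, in stressed libraries 1 to 3 (horizontal) and in stressed libraries 4 and 5 (vertical), with bars of 1 SE and colours by role. Cyp51 and Scd2 lie furthest right at 1.61 and 1.54 and above 0 on the vertical axis, and Acly and Fasn lie at 0.95 and 0.81 on the vertical axis and just left of 0 on the horizontal one.

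Cyp51, Scd2, Acaca, Ebp and Scap were higher and Mvk and Idi1 lower in stressed than in resilient PFC. These are 5 and 2 of the 32 members, against 14.3% and 10.7% of the 15491 genes tested, and their median log2 fold change was 0.08, against 0.03 over all genes. Called in either direction were 21.9% of the members and 25.0% of all genes, a share near the background. The genes called higher were Cyp51 (log2 fold change 0.94, SE 0.22, adjusted p = 0.00922), Scd2 (0.85, SE 0.24, adjusted p = 0.0235), Acaca (0.79, SE 0.13, adjusted p = 0.00214), Ebp (0.71, SE 0.19, adjusted p = 0.0191) and Scap (0.59, SE 0.17, adjusted p = 0.0250). Their libraries are given above with those of the control group, and stressed and resilient libraries overlapped for Scd2, through resilient 4, and for Ebp, where the lowest stressed and the highest resilient library both had 10.4 CPM. For Cyp51, Acaca and Scap they did not overlap. Mvk fell to 82.1, 79.0, 68.8, 69.0 and 76.4 CPM in stressed PFC, against 96.3, 103, 109 and 98.9 CPM in resilient PFC (log2 fold change -0.44, SE 0.10, adjusted p = 0.00757). Idi1 fell to 51.2, 56.3, 52.2, 59.8 and 63.4 CPM in stressed PFC, against 79.9, 73.1, 71.9 and 66.1 CPM in resilient PFC (log2 fold change -0.36, SE 0.10, adjusted p = 0.0213). Neither gene's groups overlapped. The count of members called was 3 without resilient 1 (13.6% of all genes called), 4 without resilient 2 (12.5%), 15 without stressed 4 (25.3%) and 19 without stressed 4 and 5 (38.1%). It was 18 among short-form libraries (22.9% of all genes), where resilient 4 is the single resilient library, and 14 among long-form libraries (51.5%).

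Resilient PFC was not told apart from control PFC by any single gene. edgeR called 0 of the 32 members and 0% of the 15491 genes, DESeq2 called 0 as well, and 4 members, all higher, and 364 genes had an unadjusted p under 0.05. The 2 members with the smallest p were Sqle, with a log2 fold change of 0.39 (SE 0.13), and Lss, with 0.35 (SE 0.12), both with an adjusted p of 1.00. The fold change was positive for 28 of 32 members, with a median of 0.17 against 0.01 over all genes tested. Among short-form libraries resilient 4 and control 3 stand alone in their groups, and the spread of that fit comes from the stressed libraries. It called 7 members and 428 genes (2.7%), which compares those 2 libraries and not the conditions. The stressed and resilient comparisons share the same control libraries.

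No member was called in the HIP, where libraries of 1 group spread widely. Scd2 had 607, 701, 915, 1724 and 1515 CPM in stressed, 575, 724 and 624 CPM in resilient and 1025, 551 and 512 CPM in control HIP. Stressed 4 and 5, of the short form, were the highest, and control 1, also short, was the highest control. Insig1 had 44.9, 43.9, 48.4, 142 and 116 CPM in stressed, 50.7, 49.5 and 77.8 CPM in resilient and 70.0, 61.1 and 39.4 CPM in control HIP, again with stressed 4 and 5 far above the rest. In stressed against control HIP, edgeR and DESeq2 called 0 members, and edgeR called 0% of 15758 genes, while 1 member and 1312 genes had an unadjusted p under 0.05. The 2 members with the smallest p were Scap, with a log2 fold change of 0.61 (SE 0.26, adjusted p = 0.525), and Sqle, with 0.37. Scap had 39.5, 64.2, 63.9, 87.8 and 71.6 CPM in stressed, 28.3, 40.5 and 48.0 CPM in resilient and 53.4, 38.7 and 38.1 CPM in control HIP. Its stressed libraries 2 to 5 were above all controls and stressed 1 was not.

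In stressed against resilient HIP the 2 members with the smallest p were Idi1 (log2 fold change -0.50, SE 0.15, adjusted p = 0.268) and Acaca (0.94, SE 0.31, adjusted p = 0.268). Idi1 had 68.1, 45.5, 42.9, 57.7 and 52.0 CPM in stressed and 83.8, 69.5 and 75.0 CPM in resilient HIP, and Acaca had 8.99, 17.4, 22.7, 21.4 and 15.1 CPM in stressed and 8.0, 10.0 and 9.13 CPM in resilient HIP. For Idi1 these groups did not overlap, and for Acaca stressed 1 lay among the resilient libraries. Here edgeR called 0 members and 0% of genes, 5 members (2 higher, 3 lower) and 2718 genes had an unadjusted p under 0.05, and DESeq2 called 0 members and 190 genes. Among short-form libraries 9 members (Cyp51, Srebf1, Scap, Insig1, Scd1, Scd2, Elovl5, Fads1 and Fads2) and 692 genes (4.35%) were called, all 9 higher in stressed 4 and 5 than in resilient 1 and 2, and without stressed 1 there were 3 members and 556 genes (3.54%) called. In resilient against control HIP, 0 members and 0% of genes were called by edgeR and 0 members by DESeq2, with 2 members and 225 genes at an unadjusted p under 0.05. Those 2 members were Idi1 and Lss, with log2 fold changes of 0.40 and 0.28. Summed choroid plexus markers differed widely between HIP libraries, at 56.8 to 10790.0 CPM in stressed, 464 to 1902 CPM in resilient and 57.2 to 7705 CPM in control HIP, and their part in the members' spread was not tested.

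The NAC gave no call either. Scd2 had 1979, 1958, 1433 and 913 CPM in stressed, 778, 1285 and 1408 CPM in resilient and 815, 1862 and 1065 CPM in control NAC. In each NAC group the single long-form library was the lowest, and the groups overlapped. The same held for Scap, with 112, 101, 90.5 and 54.8 CPM in stressed, 53.0, 69.9 and 90.3 CPM in resilient and 47.2, 92.0 and 57.0 CPM in control NAC. Acly went the other way in stressed mice, with 101, 115, 146 and 296 CPM, where the long-form stressed 4 was the highest of the 40 libraries, while resilient NAC had 133, 168 and 151 CPM and control NAC 132, 123 and 182 CPM. In stressed against control NAC edgeR called 0 members and 0% of 15283 genes, 0 members and 179 genes had an unadjusted p under 0.05, and DESeq2 called 0 members and 1 gene. The smallest p belonged to Scap and Sqle, with log2 fold changes of 0.46 and 0.36. In stressed against resilient NAC, where Scd1 and Dhcr7 led with 0.63 and 0.45, edgeR and DESeq2 called 0 members and 0% of genes, and 0 members and 302 genes had an unadjusted p under 0.05. In resilient against control NAC, where Scd1 and Sqle led with -0.51 and 0.21, both tools again called 0 members and 0% of genes, and 0 members and 119 genes had an unadjusted p under 0.05.

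In the CPU all libraries have the short form, and Scd2, Elovl5, Fads1 and Fads2 reached their highest CPM of the series in stressed CPU 1. Scd2 had 2378, 2286 and 1787 CPM in stressed, 1579.5 and 1479 CPM in resilient and 1986 and 1087 CPM in control CPU. The stressed libraries were above the resilient ones, and control 1 lay among the stressed. Insig1 had 123, 138 and 101 CPM in stressed, 89.1 and 92.2 CPM in resilient and 97.8 and 85.3 CPM in control CPU, without overlap between stressed and the others. In stressed against control CPU its log2 fold change was 0.39 (SE 0.14, adjusted p = 0.497) and that of Sqle 0.42 (SE 0.17, adjusted p = 0.506), the 2 members with the smallest p. Sqle had 92.6, 94.7 and 114 CPM in stressed, 86.5 and 111 CPM in resilient and 79.8 and 70.1 CPM in control CPU. edgeR called 0 members and 0% of 14958 genes in this comparison, 2 members and 1430 genes had an unadjusted p under 0.05, and DESeq2 called 0 members and 40 genes. In stressed against resilient CPU edgeR called 0 members and 0% of genes, with 2 members (Scd1 at 0.78 and Insig1 at 0.36, adjusted p = 0.939 for both) and 382 genes at an unadjusted p under 0.05, and DESeq2 called 0 members and 3 genes. In resilient against control CPU edgeR called 0 members and 0% of genes, with 1 member (Sqle at 0.45, adjusted p = 0.579) and 1234 genes at an unadjusted p under 0.05, and DESeq2 called 0 members and 29 genes; Elovl6 followed with -0.32.

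Whether the effect of stress on these genes differed between regions was tested directly over all 40 libraries. The joint interaction test of edgeR called 0 of 32 members and 0% of the 16759 genes tested. At an unadjusted p under 0.05 there were 1 member (Acaca, adjusted p = 0.391) and 2108 genes, and DESeq2 called 0 members and 240 genes. The calls in the PFC and their absence elsewhere are therefore not shown to be a difference between regions. Averaged over the 4 regions with equal weight, no member was called lower in stressed than in control libraries, against 4.37% of all genes. In the same average 5 members were called higher, against 5.79% of all genes. They were Cyp51 (log2 fold change 0.65, SE 0.16, adjusted p = 0.0130), Sqle (0.42, SE 0.11, adjusted p = 0.0143), Scap (0.51, SE 0.14, adjusted p = 0.0184), Scd2 (0.67, SE 0.18, adjusted p = 0.0204) and Sc5d (0.50, SE 0.15, adjusted p = 0.0372). The median over the members was 0.17 and that over all genes 0.01, with 22 of 32 members positive. In either direction 10.2% of all genes were called. For the fits below with 1 library left out, the share of all genes called is not given here. Their counts of members are therefore not set against a background. The number called in either direction depended on single libraries: it was 0 without CPU control 2, 8 without PFC stressed 4, 9 without HIP control 1 or NAC stressed 4, 10 without CPU control 1, 11 without NAC control 2 and 12 without HIP stressed 1.

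In control libraries, without defeat, the joint test over the 4 regions called 3 of the 32 members, Scd2, Fdps and Fdft1, against 18.8% of 16053 genes, so the members' share lay below the background. Scd2 averaged 448.6 ± 5.08 CPM in PFC, 696 ± 286 CPM in HIP, 1247 ± 547 CPM in NAC and 1536 ± 636 CPM in CPU control libraries (SD, n = 3, 3, 3 and 2; adjusted p = 0.0207). Its single control libraries had 443, 451 and 452 CPM in PFC, 1025, 551 and 512 CPM in HIP, 815, 1862 and 1065 CPM in NAC and 1986 and 1087 CPM in CPU, so that PFC lay below every other region and the other 3 regions overlapped. Fdps had 308, 248 and 309 CPM in PFC, 279, 258 and 268 CPM in HIP, 133, 159 and 226 CPM in NAC and 135 and 198 CPM in CPU (adjusted p = 0.0330), with PFC and HIP above NAC and CPU. Fdft1 had 409, 341 and 417 CPM in PFC, 363, 302 and 356 CPM in HIP, 194, 212 and 321 CPM in NAC and 224 and 262 CPM in CPU (adjusted p = 0.0477), and its HIP and NAC libraries overlapped. An unadjusted p under 0.05 was reached by 11 members and 5550 genes. DESeq2 called 10 members and 4913 of all genes. For the fits named next, the share of all genes called is not given here. No member was called without PFC control 1, 2 or 3 or CPU control 1, or among short-form libraries, 1 was called without HIP control 2, and 5 without HIP control 1 or CPU control 2. File-name form differs between the regions, with all CPU controls short and 2 of 3 PFC controls long, and its part was not tested within regions.

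**Figure D5:**
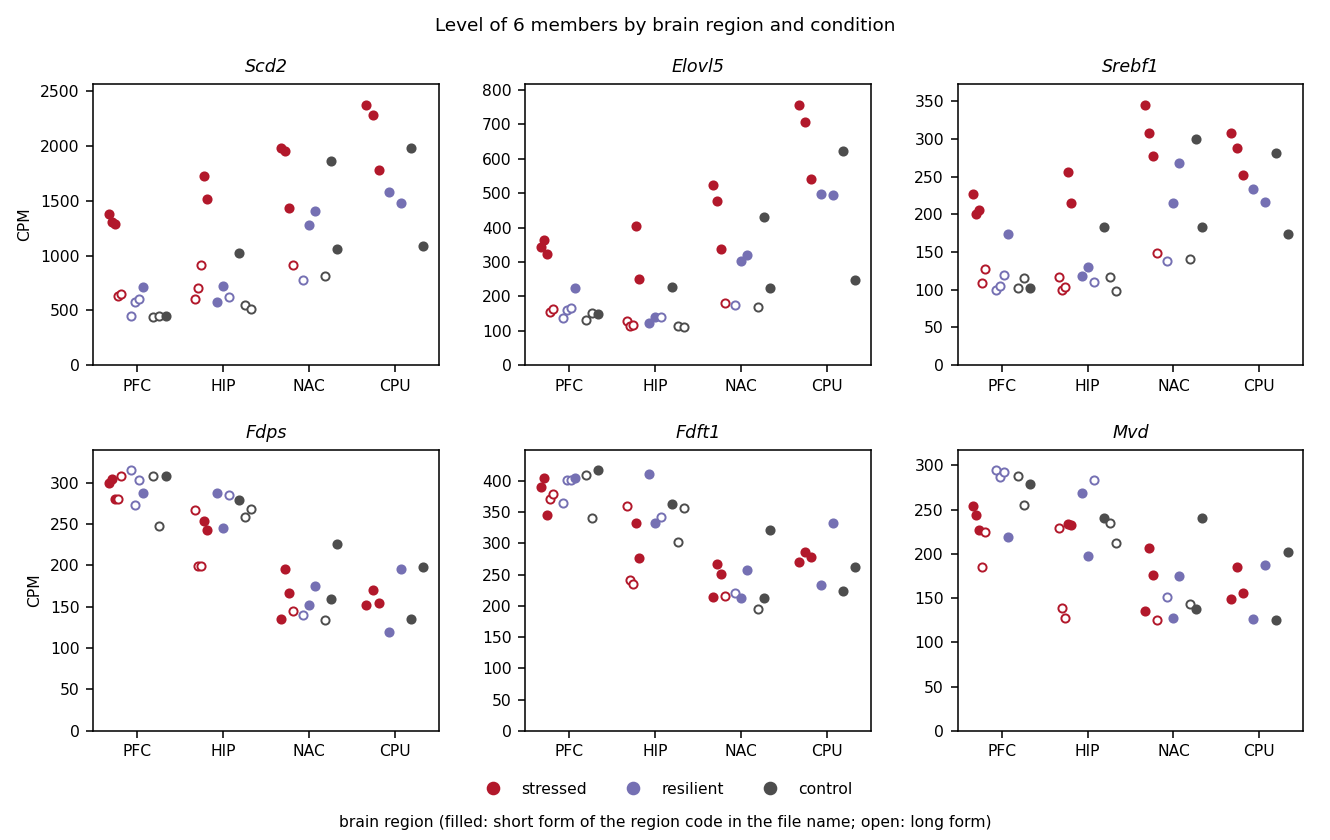
CPM of 6 members in every library by brain region, with stressed left, resilient in the middle and control right within a region; filled points are short-form and open points long-form libraries. In the upper row Scd2, Elovl5 and Srebf1 lie low in PFC controls (443 to 452 CPM for Scd2) and highest in NAC or CPU libraries, and in the lower row Fdps, Fdft1 and Mvd lie higher in PFC and HIP than in most NAC and CPU libraries.

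Within groups, Scd2 varied together with Scd1, Elovl5, Fads1, Fads2, Cyp51 and Srebf1 from library to library. Over the 40 libraries, each taken as its deviation from its group mean, the log2 CPM of Elovl5 correlated with that of Scd2 at r = 0.96 (rho 0.97), Cyp51 at 0.95 (rho 0.95), Scd1, Fads2 and Srebf1 each at 0.95, Tm7sf2 at 0.93, Sc5d and Fads1 at 0.91, Ebp at 0.88, Dhcr7 at 0.87 and Scap at 0.83. Hmgcs1 and Acly ran the other way with -0.57 and -0.62. Without the 2 libraries farthest from the median, r stayed between 0.80 and 0.97 for the members from Elovl5 to Scap named here. Deviations taken within file-name form (n = 33 libraries) gave, with Scd2, 0.90 for Cyp51, 0.89 for Scd1, 0.86 for Fads2, 0.84 for Elovl5, 0.82 for Ebp, 0.81 for Fads1, 0.79 for Tm7sf2, Srebf1 and Scap each, 0.76 for Sc5d, 0.52 for Dhcr7 and -0.84 for Idi1. For Nsdhl r was 0.66 over the 40 libraries and 0.03 within form, and for Pmvk 0.43 and -0.50. Within form r was negative for further members, among them Hmgcs1 (-0.74), Stard4 (-0.69), Lss (-0.67) and Mvd (-0.62). Scd2 was not compared in this way with genes outside the members. With Pmvk, the genes closest over the 40 libraries were Mvd (r = 0.83), Acat2 (0.79) and Mvk (0.76), all of the early pathway. With the length trend of a library, Acly and Fasn correlated at 0.82 and 0.69 and Pmvk at -0.74. The values of a library share its RNA, depth and scaling, so these are descriptions and no test was made.

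Related genes outside the 32 were taken from lists and moved in both directions in stressed against control PFC. In sterol and isoprenoid synthesis, Msmo1, which follows Cyp51 and Tm7sf2, was called higher (log2 fold change 0.68, SE 0.22, adjusted p = 0.0391), and Ggps1, which makes geranylgeranyl diphosphate, was called lower (-0.55, SE 0.10, adjusted p = 0.00326). Of 16 genes of the SREBP pathway and sterol uptake, 7 were called higher and 2 lower (16.4% and 11.7% over all genes), among them Erlin2 (0.83, adjusted p = 0.00477), Npc1, which exports cholesterol from lysosomes (1.62, adjusted p = 0.00778), Stard5 (-0.53, adjusted p = 0.00252) and Nfyc, an NF-Y subunit (-0.37, adjusted p = 0.0100).

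Of 24 other genes of fatty acid synthesis and handling, 8 were called higher and 3 lower, among them Fads3 (0.95, adjusted p = 0.00325), Elovl4, which makes very long chains (0.72, adjusted p = 0.00391), Acsl3, an acyl-CoA synthetase (0.78, adjusted p = 0.0119), and Tecr, an enoyl-CoA reductase (0.98, adjusted p = 0.0122). Of 11 genes tested for sterol turnover and the LXR receptors, 5 were called higher and 2 lower, among them Cyp46a1, the cholesterol hydroxylase (1.39, adjusted p = 0.000952), Nceh1, a cholesteryl ester hydrolase (1.65, adjusted p = 0.00351), Abcg1, a sterol exporter (2.12, adjusted p = 0.00449), and Nr1h2, the receptor LXR beta (-0.50, adjusted p = 0.00477). Cyp46a1 is made mainly by neurons, whose markers were also higher in stressed PFC, and the part of neuron RNA in its call was not tested. The median log2 fold changes of these lists of 16, 24 and 11 genes were 0.43, 0.36 and 0.42, against 0.04 over all genes. Like the members, the lists were chosen with earlier results known, so these values are descriptions only. In stressed against resilient PFC the same lists had 3, 5 and 5 genes called higher and 2, 2 and 1 called lower, where 14.3% and 10.7% of all genes were. Averaged over the 4 regions, 5.79% of all genes were called higher and 4.37% lower in stressed than in control libraries. Of the same lists, 5, 5 and 3 genes were called higher and 2, 1 and 1 lower in that average.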

How the data were processed

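The authors deposited whole-number read counts per gene for each library, raw and not normalized, made with STAR 2.0.0e and HTSeq on mm10, per the submitters' processing notes. How HTSeq was set (annotation, overlap mode, strand) is not given in the sources used here, so overlapping genes may share reads. HTSeq's closing lines were left out. Genes were filtered with filterByExpr, scaled by TMM factors and tested in edgeR 4.0.16 (R 4.3.3) by quasi-likelihood with robust dispersion, Benjamini-Hochberg adjusted over all genes tested, two-sided, with 1 fit per region, 1 over the control libraries of the 4 regions (joint test) and 1 over all 40 libraries (interaction and average). The steps were tested on simulated data. In each of 52 pairs of libraries of 1 group, counts differed beyond sampling noise (8.25 to 293 in chi-square over its degrees of freedom). The members and lists were chosen with earlier results of these data known.

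Fold change, SE and adjusted p were printed for the members called in a comparison, for the 12 with the largest change where more were called, and for the 2 with the smallest p where none was; of each related list up to 4 called genes with the smallest p were named, and some genes of the sterol and isoprenoid list, with the counts of that list, are not reported here. Gene positions and exonic lengths are from the mm10 annotation GENCODE vM21 and promoters from RefSeq. Alternatives were DESeq2 1.42.0, RLE size factors, no filter, the file-name form as a covariate or 1 form alone, stressed PFC libraries 4 and 5 or 1 to 3 left out, each library left out, and a replicate block. Same-numbered libraries deviated together in every pair only for resilient and control NAC (r = 0.414 to 0.807), where no member was called with or without the block. In both of these groups library 1 has the long form and libraries 2 and 3 the short form. A shared number and a shared file-name form therefore cannot be told apart there.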

Additional observations from a re-analysis of the deposited data

Results flagged for a closer look

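In groups of 4 or 5 libraries, 6 of 128 combinations of a member and a group held a library far from the others by Dixon's 95% critical value, where chance flags about 1 in 20 groups. In resilient PFC, resilient 4 was the lowest for Mvd with 219 CPM and the highest for Sqle with 105 CPM, and resilient 1 was the lowest for Fdft1 with 365 CPM. Resilient 4 is the short-form library of that group. In stressed NAC, stressed 4, the long-form library of that group, was the lowest for Nsdhl with 41.8 CPM, for Sc5d with 44.2 CPM and for Dhcr7 with 28.9 CPM. The part of the file-name form in these values was not tested.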

How the results depend on the processing

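Every one of the 14 members called in stressed against control PFC kept its sign under every setting. Size and calls did not hold in the same way. With stressed 4 and 5 as the only stressed libraries, Cyp51, Scd2, Scap, Acaca and Sqle stayed called, and the others of the 14 did not. Among the latter, Fads1, Elovl5 and Srebf1 had log2 fold changes of 0.05, 0.16 and 0.17 there. The constant sign does not extend to members that were not called: Hmgcs1, Acly and Fasn changed sign between the sets of stressed libraries, as given above. The number called was 3 to 14 when 1 library was left out. It was 13 with RLE size factors, 11 without a filter and 14 with DESeq2, which called 5377 genes over all. With 4353 genes called over all, the settings gave 1533 to 8347. For the PFC fits with RLE size factors, without a filter or with the replicate block, the share of all genes called is not given here. The counts of members from those fits are therefore not set against a background. The count of members with the file-name form as a covariate is not given here for the PFC comparisons or the control regions. In stressed against resilient PFC (7 members) the number was 14 among long-form and 18 among short-form libraries, 19 without stressed 4 and 5, and 3 to 15 with 1 library left out. Among short-form libraries, resilient against control PFC gave 7 members and stressed against resilient HIP 9; the second comparison gave 0 to 3 with 1 library left out. The joint test over control regions (3 members) gave 10 with DESeq2, 0 among short-form libraries and 0 to 5 with 1 library left out. The average over regions (5 members) gave 10 with DESeq2, 10 with the form as a covariate, 11 among short-form libraries and 0 to 12 with 1 library left out. Over all genes, DESeq2 called 4913 for the control regions and 2947 for the average, where edgeR called 3024 and 1703. For the other settings of these 2 tests the share of all genes is not given here. The short-form settings of the control regions, the average and the interaction were chosen after seeing the data. The cause of these changes was not tested, but short-form fits hold fewer libraries, and some groups then hold 1, assumed to vary like the others. NAC could not be fitted with the long form alone. With the replicate block the members called were 12 in stressed against control PFC, 8 in stressed against resilient PFC, 0 for control regions and 2 for the average; replicate numbers pair no libraries there, and under the block the other comparisons had 0 members called, as without it. Depth was at least 21.3 M counts in every library, and each region had 2 or 3 control libraries.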
